A study of Rattus norvegicus with 15 samples.

Results

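Tnpo1, Nfat5, Secisbp2l, Hipk1, Hipk2 and Hipk3 were 6 of the 17055 genes counted in rat islet cells whose Argonaute-bound RNA was sequenced beside their mRNA. They were chosen by their measured levels: their transcripts stood far higher in Ago2-bound RNA than in poly(A) RNA of these same libraries. That difference between library types therefore describes how the genes were picked and is given below with no test. The fits of miR-17-5p against control cells also hold the control libraries that took part in the choice, so their direction is not free of it.

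Islets of 10-day-old Sprague-Dawley rats had been taken apart into cells, which then received a miR-17-5p mimic (a made RNA duplex that raises the level of this microRNA) or a control mimic. From transfected cells, RNA held by the Argonaute protein Ago2 was recovered with an anti-Ago2 monoclonal antibody and sequenced (RISC libraries, after the RNA-induced silencing complex), and poly(A) RNA was sequenced in parallel (mRNA libraries). The groups were miR-17-5p RISC with 4 libraries (numbers 2, 4, 5 and 6), control RISC with 3 (1, 2 and 3), miR-17-5p mRNA with 5 (1, 2, 4, 5 and 6) and control mRNA with 3 (1, 2 and 3). Every group came from unsorted islet cells of the same strain and age, and no untransfected cells and no precipitation with another antibody were among the 15 libraries.

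A microRNA guides Argonaute proteins to messenger RNAs that pair with its seed, and GW182 proteins then recruit factors that block translation and shorten the poly(A) tail. RNA recovered with Ago2 is thus meant as a view of transcripts in the complex, for any of the microRNAs of the cell. RNA carried along without being in the complex was not measured here. Tnpo1 encodes transportin-1, which carries RNA-binding proteins into the nucleus, Nfat5 the transcription factor of the response to high salt, and Secisbp2l a relative of the protein that reads selenocysteine signals. Hipk1, Hipk2 and Hipk3 are nuclear serine/threonine kinases that bind homeodomain transcription factors, and mice without Hipk3 clear glucose poorly.

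The microRNA that was added is shown with the rat microRNAs that share its seed, since these can pair with the same sites. Bases 2 to 8, the seed, are in capitals, and the sequences are those of RefSeq, 5′ to 3′. Of 693 mature rat microRNA names in that table, 5 carried this seed.

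rno-miR-17-5p: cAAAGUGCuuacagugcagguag
rno-miR-20a-5p: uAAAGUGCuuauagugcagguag
rno-miR-20b-5p: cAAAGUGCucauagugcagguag
rno-miR-93-5p: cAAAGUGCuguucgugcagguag
rno-miR-106b-5p: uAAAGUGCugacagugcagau

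In the GRCr8 build the mature miR-17-5p lies in the Mir17 gene at chr15:98587861-98587883 on the plus strand, and the table lists the same mature sequence in the Mir106a gene at chrX:137343615-137343637 on the minus strand. The reverse complement of the seed, which a matching site would hold, reads GCACUUU. Transcript sequences of the 6 genes were not analysed here, so no statement is made on whether they hold such a site.

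The libraries held 3379456 to 21056240 counts in genes, 4185123 to 13420403 in RISC and 3379456 to 21056240 in mRNA. The ribosomal precursor Rn45s took 23.6% to 42.6% of RISC counts and 3.13% to 12.8% of mRNA counts, and the insulin genes 0.947% to 1.97% and 26.2% to 41.8%. Genes with a count numbered 9040 to 10753 in miR-17-5p RISC libraries and 5589 to 7424 in control RISC libraries, against 11142 to 12997 in mRNA libraries. Levels are CPM, the usual unit of a gene's counts relative to the total of its library, scaled with trimmed mean of M values (TMM) factors over the 15 libraries. Summed stellate cell and fibroblast markers (17 genes in the tables, Col1a2 at 0 in every group) ranged over 24779 to 27916 CPM in miR-17-5p RISC and 4726 to 10243 in control RISC. In mRNA they ranged over 23647 to 51576 CPM with miR-17-5p and 12401 to 21894 CPM in control cells. Summed islet endocrine markers ranged over 314002 to 575438 CPM in miR-17-5p mRNA and 447941 to 517299 CPM in control mRNA. Endocrine genes thus made up much of the mRNA, as the islet label says. In RISC these markers summed to 12290 to 18153 CPM with miR-17-5p and 16489 to 26650 CPM in control cells. Macrophage markers summed to 256 to 331 CPM in miR-17-5p RISC and 0.159 to 129 CPM in control RISC, and to 247 to 544 CPM and 101 to 417 CPM in the mRNA of these cells. Endothelial markers summed to 50.5 to 132 CPM in miR-17-5p RISC and 73.4 to 240 CPM in control RISC, acinar markers to 5.10 to 10.7 CPM and 28.7 to 48.3 CPM, and duct markers to 337 to 411 CPM and 413 to 434 CPM. In unsorted cells, fewer cells of a type and less RNA per cell cannot be told apart.

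All 6 transcripts were several times higher in RISC libraries than in mRNA libraries, whichever mimic the cells had received. In miR-17-5p cells the ratio of the fitted levels, RISC over mRNA, was 4.21 to 6.98, and in control cells it was 4.99 to 5.97. Every RISC library lay above every mRNA library for each of the 6 genes, by a factor between the lowest RISC and the highest mRNA library of at least 1.88 (Secisbp2l) and as much as 3.58 (Hipk3). CPM values are not per length, so they are compared between libraries and not between genes.

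Tnpo1, the import receptor, had 441, 576, 410 and 326 CPM in miR-17-5p RISC libraries 2, 4, 5 and 6, and 485, 429 and 442 CPM in control RISC libraries 1, 2 and 3. It had 96.3, 97.4, 97.9, 93.7 and 101 CPM in miR-17-5p mRNA libraries 1, 2, 4, 5 and 6, and 86.6, 95.5 and 82.1 CPM in control mRNA libraries 1, 2 and 3. The mRNA values of both transfections lay close together and far below all 7 RISC values. The RISC minus mRNA difference was 2.34 ± 0.16 on the log2 scale (SE, n = 4 and 5) in miR-17-5p cells and 2.37 ± 0.16 (n = 3 and 3) in control cells.

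Nfat5, the only member of its family that answers osmotic stress rather than calcineurin, had 590, 727, 585 and 482 CPM in the 4 miR-17-5p RISC libraries and 756, 719 and 750 CPM in the 3 control RISC libraries. In mRNA it had 130, 91.6, 157, 129 and 147 CPM with miR-17-5p and 122, 141 and 160 CPM in control cells. The control RISC values differed by a factor of 1.05 between highest and lowest, and those of miR-17-5p RISC by 1.51, with library 4 highest and library 6 lowest. RISC minus mRNA was 2.35 ± 0.18 (log2, SE) in miR-17-5p cells and 2.40 ± 0.17 in control cells.

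Secisbp2l had 316, 238, 313 and 141 CPM in the miR-17-5p RISC libraries, against 336, 382 and 320 CPM in the control RISC libraries. In mRNA it had 61.8, 63.2, 67.8, 72.2 and 75.0 CPM with miR-17-5p and 63.0, 66.9 and 61.9 CPM in control cells. It was the only one of the 6 whose RISC values did not overlap between the transfections, all 4 with miR-17-5p being below all 3 controls. Of 11418 genes, 2.79% were likewise below in every library and 14.8% above, so such a split was not rare. The Secisbp2l value of miR-17-5p library 6 lay far below the others. RISC minus mRNA was 2.08 ± 0.23 (log2, SE) in miR-17-5p cells and 2.44 ± 0.18 in control cells.

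Among the kinases, Hipk1 had 534, 472, 478 and 378 CPM in the miR-17-5p RISC libraries and 561, 366 and 784 CPM in the control RISC libraries. Its mRNA stood at 124, 83.4, 120, 120 and 127 CPM with miR-17-5p and at 110, 118 and 116 CPM in control cells. Control RISC spanned the whole range of miR-17-5p RISC, and the one low mRNA value was that of miR-17-5p library 2.

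Hipk2, which phosphorylates p53 after DNA damage, had 480, 388, 349 and 244 CPM in the miR-17-5p RISC libraries and 390, 345 and 545 CPM in the control RISC libraries. In mRNA it had 70.8, 56.8, 52.2, 70.6 and 65.7 CPM with miR-17-5p and 57.1, 85.8 and 72.9 CPM in control cells. As for Hipk1, control RISC library 3 was highest and control RISC library 2 lowest of the 3 controls.

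Hipk3 had 444, 457, 382 and 293 CPM in the miR-17-5p RISC libraries and 423, 436 and 415 CPM in the control RISC libraries. In mRNA it had 56.0, 69.9, 73.6, 58.9 and 59.7 CPM with miR-17-5p and 57.5, 75.1 and 81.8 CPM in control cells. The 3 control RISC values nearly coincided, while both mRNA groups overlapped. Human and mouse HIPK3 genes also give an abundant circular RNA, and counts per gene do not separate circular from linear transcripts.

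**Figure D1:**
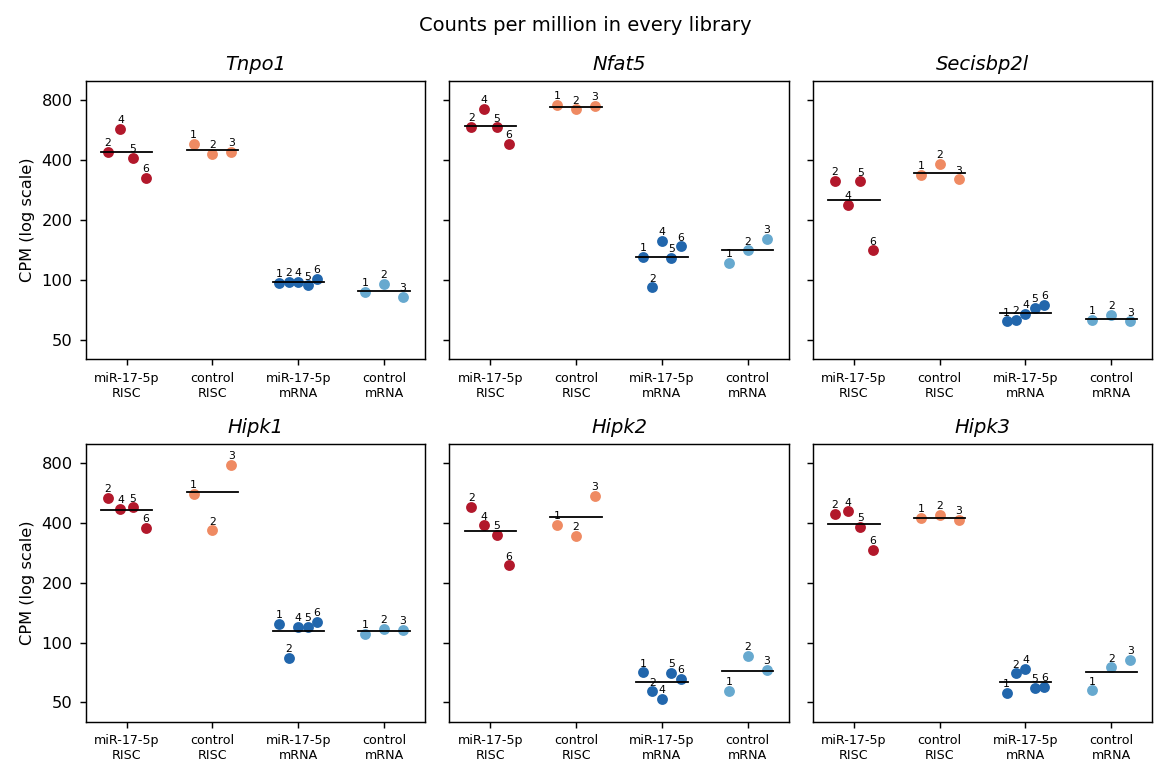
CPM (TMM-scaled, log axis) of each gene in every library, with the library number beside each point and the group mean as a bar (n = 4, 3, 5 and 3 from left to right). RISC values of every gene lie above all its mRNA values, and miR-17-5p RISC library 6 is the lowest of its group in all 6 panels.

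The kinases held the highest and the lowest positions in control cells. RISC minus mRNA on the log2 scale was 2.19 ± 0.17, 2.71 ± 0.20 and 2.80 ± 0.17 (SE) for Hipk1, Hipk2 and Hipk3 in miR-17-5p cells, and 2.32 ± 0.31, 2.57 ± 0.28 and 2.58 ± 0.20 in control cells. In miR-17-5p cells 0.782% (Hipk3) to 3.84% (Secisbp2l) of 10871 tested genes stood above the member, and in control cells 2.41% (Hipk3) to 3.93% (Hipk1) of 10170. The median over all tested genes was -0.15 in miR-17-5p cells and -0.69 in control cells, and that of the 6 genes 2.35 and 2.42. In miR-17-5p cells the 95% interval ran from 2.43 to 3.18 for Hipk3, the highest of the 6, and from 1.56 to 2.59 for Secisbp2l, the lowest, and differences between the genes were not tested. As background, 43.5% of all genes tested passed an adjusted p under 0.05 in miR-17-5p cells, 21.7% higher and 21.8% lower in RISC, and 28.2% passed in control cells, 5.96% higher and 22.3% lower. Every RISC library lay above every mRNA library for 15.5% of 11418 genes in miR-17-5p cells and 10.7% in control cells, and below for 28.2% and 40.3%. All 6 genes were among those above in both, which their choice for high RISC over mRNA levels favoured.

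**Figure D2:**
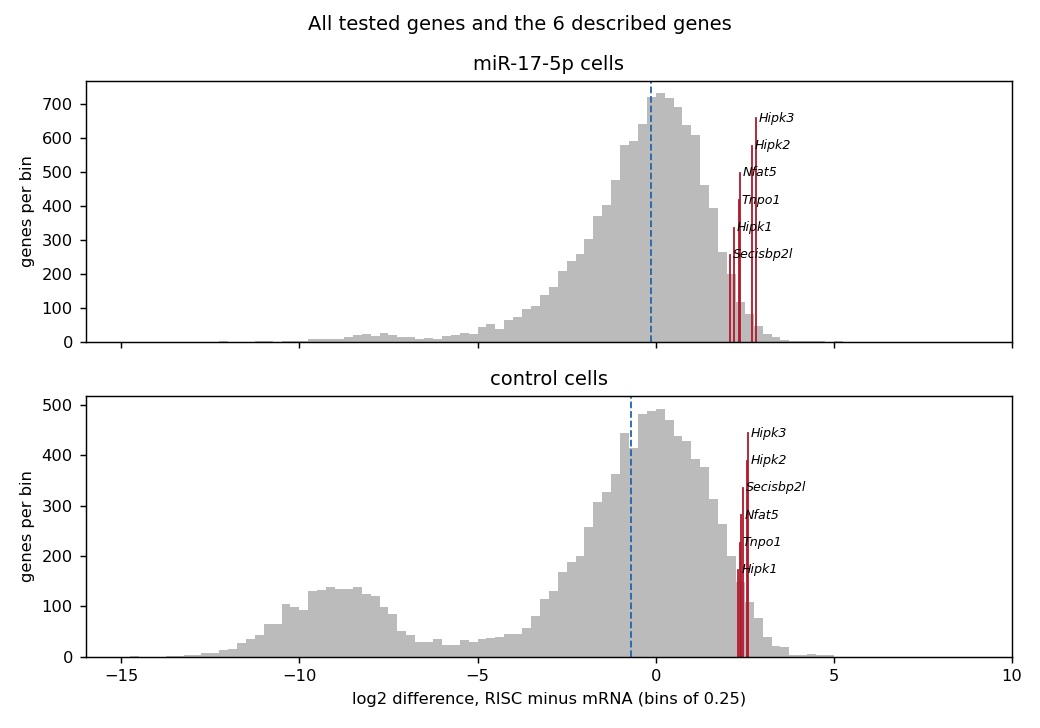
Number of tested genes per bin of 0.25 of the fitted log2 difference, RISC minus mRNA, in miR-17-5p cells (above) and control cells (below), with the median of all genes dashed and the 6 described genes as labelled lines. The 6 lie between 2.08 and 2.80 in miR-17-5p cells and between 2.32 and 2.58 in control cells; genes at 0 counts in a group, 165 above and 1562 below, have fitted values that are no measure of size.

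Precipitation and selection differed together between the library types, since mRNA libraries were made from oligo(dT)-bound RNA and the labels state no such step for RISC, so both cannot be told apart. With DESeq2 size factors in place of TMM the median of all genes moved to -0.26 in miR-17-5p cells and -0.87 in control cells, and the 6 genes moved with it, to 1.94 to 2.68 and 2.15 to 2.40.

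The 6 transcripts were among the steadier ones in RISC libraries of control cells. Their coefficients of variation (SD over mean CPM) were 14.0% to 32.7% in miR-17-5p RISC, where the median over all genes was 47.1%, and 2.54% to 36.6% in control RISC, where it was 98.1%. In mRNA they were 2.87% to 19.1% with miR-17-5p and 3.37% to 20.0% in control cells, against medians of 23.7% and 22.5%. A gene with many counts has less counting error, and 61.1% of genes had no count in at least 1 control RISC library and 28.7% in at least 1 miR-17-5p RISC library. Because the genes were picked for their position in these libraries, their low spread is a description too.

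All 6 had their lowest miR-17-5p RISC value in library 6. This library also had the highest share of Rn45s, 42.6% of its counts, and control RISC library 2 had the highest of the controls at 37.9%. In that control library Tnpo1, Nfat5, Hipk1 and Hipk2 had their lowest control RISC value, while Secisbp2l and Hipk3 had their highest. The part of Rn45s in the spread of the 6 genes was not tested. Without number 6, in both library types, RISC minus mRNA in miR-17-5p cells was 2.32 ± 0.17 (log2, SE) for Secisbp2l and 2.33 ± 0.18 to 2.91 ± 0.16 for the other 5 genes.

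No change with miR-17-5p was detected for any of the 6 transcripts, in Ago2-bound RNA or in mRNA. By edgeR's quasi-likelihood test with Benjamini-Hochberg adjustment over all genes, 0 of 6 passed in RISC, where 0.371% of 9443 genes did (0.339% higher and 0.0318% lower), and 0 of 6 in mRNA, where 3.87% of 11077 did (3.11% higher and 0.767% lower). None of the 6 had an unadjusted p under 0.05 in either library type, and 0 of 6 passed by DESeq2, which called 13.8% of all genes tested in RISC and 8.01% in mRNA, or by limma-voom, which called 0.212% and 9.04%. These misses do not show that the levels were equal, and the 95% intervals give the range of change the libraries allow.

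In RISC, the log2 difference of miR-17-5p minus control was -0.02 ± 0.22 for Tnpo1 (SE, n = 4 and 3; adjusted p = 0.992), with a 95% interval of -0.52 to 0.48. For Nfat5 it was -0.29 ± 0.19 (adjusted p = 0.554), with an interval of -0.72 to 0.13. For Secisbp2l it was -0.44 ± 0.29 (adjusted p = 0.593), with an interval of -1.10 to 0.23. The Secisbp2l libraries did not overlap, but the test did not pass, and the miR-17-5p values spanned a factor of 2.25. Every miR-17-5p RISC library lay below every control RISC library for 2.79% of 11418 genes and above for 14.8%. Without miR-17-5p library 6 the Secisbp2l difference was -0.24.

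The kinases stood at -0.27 ± 0.27 for Hipk1, -0.20 ± 0.27 for Hipk2 and -0.09 ± 0.21 for Hipk3 in RISC, with adjusted p of 0.832, 0.924 and 0.976. Their 95% intervals ran from -0.87 to 0.33, from -0.81 to 0.41 and from -0.56 to 0.38 in the same order. All 6 estimates were below 0, with a median of -0.24, where the median of all genes was 0.27 and 59.0% of all genes were above 0. The control RISC libraries took part in choosing the 6 for high RISC levels. That choice can by itself pull these estimates below 0, so the shared sign is a description. Of the 9443 genes tested, 985 had 0 counts in one of the groups, and the sign of Tnpo1, Hipk1 and Hipk3 turned when single libraries were left out.

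In mRNA, Tnpo1 stood at 0.14 ± 0.12 (log2, SE, n = 5 and 3; adjusted p = 0.555) and Secisbp2l at 0.09 ± 0.13 (adjusted p = 0.774). Nfat5 stood at -0.10 ± 0.17, Hipk1 at 0.01 ± 0.15, Hipk2 at -0.18 ± 0.17 and Hipk3 at -0.16 ± 0.16, with adjusted p of 0.799, 0.989, 0.605 and 0.636. Of the 6 estimates 3 were above and 3 below 0, with Hipk1 turning below 0 under DESeq2 size factors, and the median of the 6 was -0.05 against 0.01 for all genes. All 6 genes overlapped between the transfections in mRNA, where every miR-17-5p library lay above every control library for 8.29% of 11418 genes and below for 6.39%. The widest interval, that of Nfat5, ran from -0.46 to 0.26, and the narrowest, that of Tnpo1, from -0.11 to 0.39.

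The change in RISC beyond the change in mRNA was tested in a model of all 15 libraries. It was -0.19 ± 0.23 for Tnpo1, -0.21 ± 0.26 for Nfat5, -0.54 ± 0.31 for Secisbp2l, -0.30 ± 0.31 for Hipk1, -0.04 ± 0.32 for Hipk2 and 0.06 ± 0.25 for Hipk3 (log2, SE). These values subtract the RISC minus mRNA difference of control cells, by which the genes were chosen. That choice can by itself pull them below 0, so their direction is a description. None of the 6 passed in edgeR's quasi-likelihood test, the lowest adjusted p being 0.332 for Secisbp2l, where 13.4% of 11418 genes did (13% higher and 0.394% lower). Of these 11418 genes, 2578 had 0 counts in one of the groups, while the 6 had counts in every library, so that share is no close match for them. The interval for Secisbp2l ran from -1.21 to 0.13. None had an unadjusted p under 0.05, and 0 of 6 passed with DESeq2, which called 19.4% of all genes, or with limma-voom, which called 0%.

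**Figure D3:**
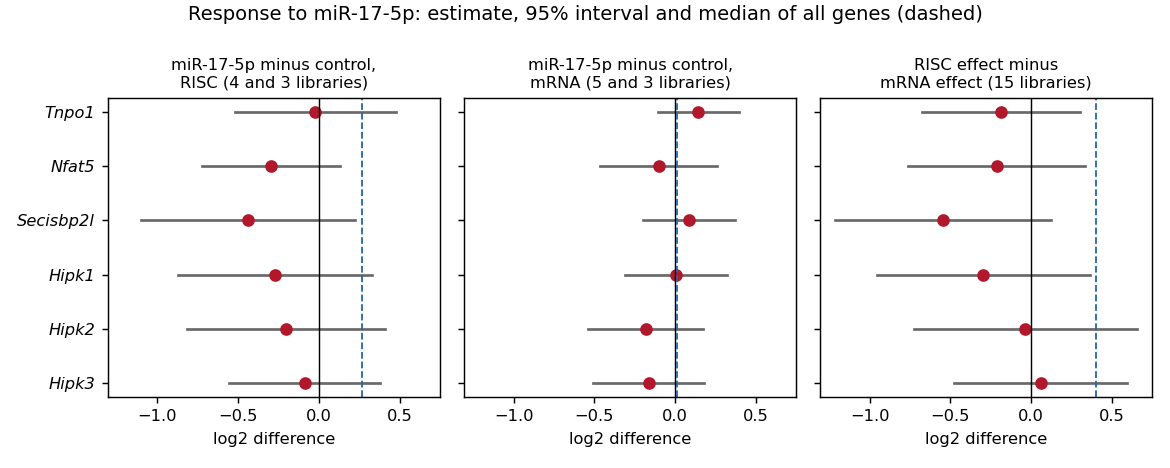
Estimated log2 difference (point) with its 95% interval (bar) for each gene: miR-17-5p minus control in RISC (4 and 3 libraries) and in mRNA (5 and 3), and the RISC effect minus the mRNA effect (15). Every interval includes 0. The dashed lines mark the medians of all genes, 0.27, 0.01 and 0.40, the last being 0.30 with genes at 0 counts set to 3 counts per library. Control libraries that took part in choosing the genes enter every panel, so the direction of the points is not free of that choice.

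Close relatives of the 6 genes did not all stand high in RISC. Tnpo2, the paralogue of Tnpo1 with the same kind of cargo, had 85.8 ± 9.20 CPM in miR-17-5p RISC (SD, n = 4) and 136 ± 29.3 CPM in control RISC (n = 3), against 119 ± 6.28 (n = 5) and 147 ± 15.3 CPM (n = 3) in the mRNA of these cells. Its RISC minus mRNA difference was -0.29 ± 0.14 (log2, SE) in miR-17-5p cells and -0.11 ± 0.24 in control cells, and that of Tnpo3, which imports splicing factors, -0.15 ± 0.34 and 0.11 ± 1.22. Kpnb1, importin beta, stood at 1.15 ± 0.12 in miR-17-5p cells and 0.12 ± 0.21 in control cells.

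In the NFAT family, Nfatc3 came nearest to Nfat5, with 2.11 ± 0.19 (log2, SE) in miR-17-5p cells and 2.14 ± 0.45 in control cells. Nfatc1 stood at 1.26 ± 0.23 and 0.21 ± 0.67 and Nfatc2 at 1.10 ± 0.27 and 1.88 ± 0.72, in the same order of cells. Nfatc4 stood at -1.17 ± 0.30 in miR-17-5p cells and had 0 counts in the 3 control RISC libraries. Secisbp2, the selenocysteine factor itself, stood at 0.59 ± 0.39 in miR-17-5p cells and 0.26 ± 0.77 in control cells, with 34.4 ± 18.6 CPM in miR-17-5p RISC and 42.1 ± 33.7 CPM in control RISC.

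The dual-specificity kinases next to the HIPKs in the kinase family were split. Dyrk2 stood at 2.37 ± 0.19 (log2, SE) in miR-17-5p cells and 2.63 ± 0.57 in control cells, and Dyrk1a at 1.91 ± 0.22 and 1.58 ± 0.52, while Dyrk1b stood at 0.95 ± 0.21 and -0.31 ± 0.83. Hipk4, the fourth HIPK, had 25 counts in miR-17-5p RISC library 2 and 0 in the other RISC libraries, and 0 to 16 counts in mRNA libraries, which is too little to place it.

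**Figure D4:**
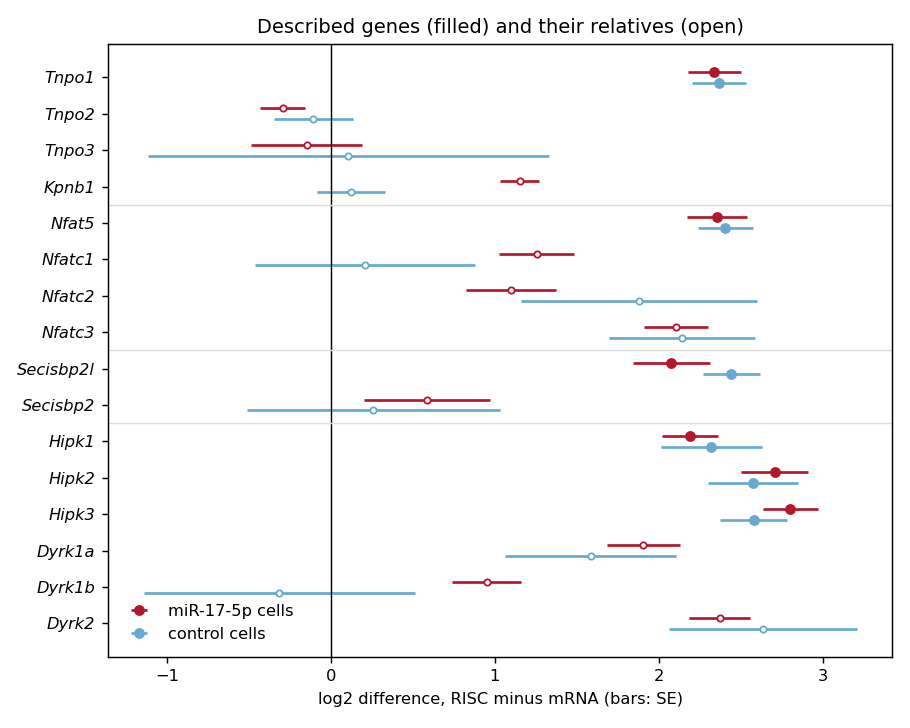
Fitted log2 difference, RISC minus mRNA, with SE (bars) for the 6 genes (filled) and close relatives (open) in miR-17-5p cells (red, upper point) and control cells (blue, lower point). Nfatc3, Dyrk1a and Dyrk2 lie near the 6 genes in both groups of cells, between 1.58 and 2.63. Nfatc2 lies in that range in control cells only, at 1.88 with a wide SE, while Tnpo2 and Tnpo3 lie near 0. Nfatc4 is left out, having 0 counts in control RISC.

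Around these genes, 8 lists of their pathways held 131 other genes with counts. Between library types in miR-17-5p cells, 36 of 123 tested (29.3%) were higher and 37 (30.1%) lower in RISC, where 21.7% and 21.8% of all genes were, with a median of 0.15 where all genes had -0.15. In control cells 15 of 122 (12.3%) were higher and 20 (16.4%) lower, where 5.96% and 22.3% of all genes were, with a median of -0.38 where all genes had -0.69. The counts of each list are to be read against these shares of all genes, and with 8 to 26 genes a list they are descriptions. Without control number 1 no gene of the tables passed between library types in control cells, so each control count below falls to 0 then.

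Nuclear transport receptors and the Ran cycle had 12 higher and 4 lower of 26 in miR-17-5p cells (median 0.75) and 6 higher and 2 lower in control cells (0.46). The exportin Xpo4 stood at 2.03 ± 0.25 (log2, SE) and 2.13 ± 0.61 in these cells, and Xpot, the exporter of transfer RNA, at 1.80 ± 0.17 and 1.61 ± 0.37. At the low end were the GTPase Ran, with -2.25 ± 0.19 in miR-17-5p cells and -5.56 ± 2.19 in control cells, and its import factor Nutf2, with -2.90 ± 0.34 and -3.06 ± 2.16. Proteins that transportin-1 carries had 2 higher and 6 lower of 14 in miR-17-5p cells (median -0.73), and 1 higher and 3 lower in control cells (-1.13). The helicase Ddx3x stood at 1.49 ± 0.12 and 1.51 ± 0.21 in these cells, and the cold-shock protein Rbm3 at -2.96 ± 0.23 and -4.41 ± 2.23.

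The NFAT and calcineurin list had 5 higher and 1 lower of 12 in miR-17-5p cells (median 0.88) and 1 higher and 2 lower in control cells (0.19). The osmotic stress list, which holds kinases of salt transport beside Nfat5 targets, had 7 higher and 3 lower of 13 in miR-17-5p cells (1.26). In control cells 2 were higher and 2 lower (0.22). Wnk1, a kinase of salt transport, stood at 1.71 ± 0.19 in miR-17-5p cells and 1.56 ± 0.19 in control cells, and the amino acid transporter Slc38a2 at 1.38 ± 0.14 and 1.34 ± 0.60. Aldose reductase, Akr1b1, which makes the osmolyte sorbitol, stood at -2.15 ± 0.20 in miR-17-5p cells and -2.40 ± 1.65 in control cells.

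Selenoproteins lay at the other end. Of 18 tested in miR-17-5p cells 0 were higher and 12 lower in RISC by edgeR's quasi-likelihood test, with a median of -3.0, and of 17 in control cells 0 were higher and 8 lower, with a median of -4.09, or -3.92 when genes at 0 counts were set to 3 counts per library. Gpx4, which reduces lipid peroxides, had 69 counts over the 4 miR-17-5p RISC libraries and 1 over the 3 control RISC libraries, against 203 ± 23.1 CPM in miR-17-5p mRNA and 183 ± 29.2 CPM in control mRNA. Factors of selenocysteine incorporation had 1 higher and 2 lower of 8 in miR-17-5p cells (median -0.47), and 0 higher and 2 lower in control cells (-1.01).

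HIPK and DYRK relatives had 3 higher and 2 lower of 9 in miR-17-5p cells (0.53), and 2 higher and 1 lower in control cells (0.35). HIPK partners had 6 higher and 7 lower of 23 in miR-17-5p cells (0.38), and 3 higher and 0 lower in control cells (0.23). Tcf7l2, a Wnt effector, stood at 2.98 ± 0.34 in miR-17-5p cells and 2.59 ± 0.84 in control cells, and the acetyltransferase Crebbp at 2.37 ± 0.22 and 2.13 ± 0.20. The beta cell factor Pdx1 stood at -1.43 ± 0.22 in miR-17-5p cells and -2.60 ± 1.67 in control cells, and Park7 at -1.67 ± 0.29 and -2.55 ± 1.65.

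With miR-17-5p, 1 of 116 of these genes (0.862%) was higher and 0 were lower in RISC by edgeR's quasi-likelihood test. Of all genes 0.339% were higher and 0.0318% lower there. In mRNA 0 of 122 passed, where 3.87% of all genes did. An unadjusted p under 0.05 was found for 18 of the pathway genes in RISC and 25 in mRNA. DESeq2 called 12 higher and 2 lower in RISC and 6 higher and 1 lower in mRNA, where it called 13.8% and 8.01% of all genes. For limma-voom these were 0 in RISC and 6 higher and 2 lower in mRNA, where it called 0.212% and 9.04% of all genes. The gene edgeR called was Runx1, a transcription factor that HIPK2 phosphorylates. It had 227 ± 62.8 CPM in miR-17-5p RISC (SD, n = 4) and 63.1 ± 7.58 CPM in control RISC (n = 3), a log2 difference of 1.86 ± 0.29 (SE, adjusted p = 0.0359). In mRNA it had 51.9 ± 22.7 CPM with miR-17-5p and 26.7 ± 0.434 CPM in control cells (0.96 ± 0.31, adjusted p = 0.116). The Runx1 call was lost without control library 1 and without miR-17-5p library 2, 5 or 6 (adjusted p = 0.0683 to 0.101) and with limma-voom. The stellate cell and fibroblast markers moved the same way, with 7 of 16 called higher in RISC and 11 of 16 in mRNA. Of all genes 0.339% were called higher in RISC and 3.11% in mRNA. Macrophage and leukocyte markers lay above 0 for 10 of 10 tested in RISC, 1 of them called, with a median of 2.67, and for 12 of 12 in mRNA, 0 of them called, with a median of 0.84. Islet endocrine markers went the other way. They lay above 0 for 2 of 11 tested in RISC (median -0.39, 0 called). In mRNA they did so for 0 of 12 (median -0.59), with 2 called lower, where 0.767% of all genes were. The part of these cell types in the Runx1 difference was not tested.

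The difference between the RISC and the mRNA effect passed upwards in edgeR's quasi-likelihood test for 14 of 124 pathway genes (11.3%, where 13% of all genes passed upwards) and downwards for 0, where 24 had an unadjusted p under 0.05 in either direction. DESeq2 called 15 higher and 4 lower of these genes, and limma-voom 0. The edgeR differences had a median of 0.22, or 0.15 with genes at 0 counts set to 3 counts per library, where all genes had 0.40 and 0.30. Of the 14 genes called by edgeR, 8 had 0 counts in all control RISC libraries (Nfatc4, Rcc1, Ppp3cc, Aqp1, Scly, Txnrd3, Vimp and Clk4), and Cirbp, Ewsr1, Hspb1 and Eefsec had 7, 3, 1 and 1 there in all. Kpnb1 was well counted, with 376 ± 29.9 CPM in miR-17-5p RISC and 175 ± 23.4 CPM in control RISC, and 190 ± 10.1 CPM and 162 ± 21.1 CPM in the mRNA of these cells (log2 difference of the effects 0.86 ± 0.20, adjusted p = 0.00965). Rangap1, which switches Ran off, had 105 ± 13.4 CPM in miR-17-5p RISC and 47.1 ± 11.5 CPM in control RISC, with 168 ± 19.6 CPM and 163 ± 34.4 CPM in mRNA (log2 difference of the effects 1.11 ± 0.29, adjusted p = 0.0198). Both calls were lost with limma-voom (adjusted p = 0.406 and 0.456), which called 0 genes in this comparison, and that of Rangap1 also without miR-17-5p number 6 (adjusted p = 0.0626).

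The transcripts whose levels ran most like the mean of the 6 over the 15 libraries were Larp4b (Pearson r of log2 CPM 0.994), Tp53inp2 (0.992), Sec63 (0.990), Tnrc6a (0.989), which encodes a GW182 protein of the silencing complex, and Crebbp (0.987), among 4952 genes. The 15 libraries fall into RISC and mRNA, a contrast that all these genes share. Over the 7 RISC libraries alone the nearest were Psmd4 (0.965), Ldlrad4 (0.963), Mark4 (0.961), Stambp (0.948) and Setd8 (0.940), and the 6 genes themselves had 0.681 (Hipk1) to 0.916 (Hipk3). The highest of 4952 values over 7 libraries can be this high by chance, and each of the 6 was set against a mean that includes it. Larp4b stood at 1.94 ± 0.16 in miR-17-5p cells and 2.04 ± 0.17 in control cells (RISC minus mRNA, log2, SE), while Psmd4, a proteasome subunit, stood at -2.88 ± 0.44 and -2.03 ± 0.54.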

How the data were processed

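The authors deposited 1 table of raw counts per gene for each of 15 libraries. The submitters' processing notes name the build rn5, TopHat2 2.0.10, Bowtie2 and HTSeq, the last pair with no version given in the sources used here. Per the labels' protocols, reads were single-end from libraries without strand, so a gene and an antisense neighbour cannot be told apart. Alignments that were not unique (15.0% to 31.2% of the library) and ambiguous ones (0.151% to 0.454%) stayed out of totals and tests. No 2 libraries of a group were alike within sampling noise (chi-square per degree of freedom 6.78 to 323, genes with at least 10 counts). Groups and numbers came from sample titles. The descriptions number libraries differently, and nothing names separate animals, so the tests see no more than library-to-library spread, which may be technical. Precision covers counting error at the depths given in the text.

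The members and the lists were chosen with earlier results of these data known. edgeR 4.0.16 under R 4.3.3 tested the counts (two-sided quasi-likelihood F-tests, robust, after filterByExpr and TMM). A gene was called at a Benjamini-Hochberg adjusted p under 0.05, and adjusted p in the text are edgeR's except where limma-voom or DESeq2 stands beside them. All 6 members passed the filter in every comparison. The fits took only the groups compared, or all 4 groups for the difference of effects. CPM used TMM factors over 15 libraries, and log2 CPM a prior count of 2. A fold against a group at 0 counts is not given. Steps were tested on simulated data with changes larger than the miR-17-5p intervals of the 6 genes allow. Smaller changes were not simulated. Genes named beside the 6 were close relatives, pathway genes called with miR-17-5p, those with the highest and lowest RISC minus mRNA difference per list (mean log2 CPM of at least 4), and the nearest by correlation. Alternatives were DESeq2 size factors, totals without Rn45s and insulin genes, no filter on low counts, a minimum mean of 50 counts, DESeq2 1.42.0, limma-voom 3.58.1, a replicate block and each library left out (both library types together where both enter). All 6 symbols were found in RefSeq for GRCr8, used for microRNA sequences and names.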

Additional observations from a re-analysis of the deposited data

Results flagged for a closer look

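Hipk1 in miR-17-5p mRNA library 2, at 83.4 CPM, lay far below the other 4 libraries of its group, the gap being 0.831 of the group's range where Dixon's limit for 5 libraries is 0.71. Of 12 groups of 4 or 5 libraries tested (6 genes, miR-17-5p RISC and miR-17-5p mRNA) this was the 1 that stood out, and chance picks about 1 in 20. Nfat5 was also lowest in this library, at 91.6 CPM. Without it the Hipk1 difference in mRNA, miR-17-5p minus control, was 0.11 and that of Nfat5 0.01, and neither passed.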

How the results depend on the processing

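None of the 6 genes passed in any of the 3 comparisons with miR-17-5p under any alternative run. Of 258 values of the 6 genes in these comparisons under alternatives, 228 kept their sign and 30 changed it. RISC minus mRNA, on which the genes were chosen, has no test: its values ran from 1.91 to 2.91 in miR-17-5p cells and from 2.03 to 2.79 in control cells, and that of Tnpo1 in control cells was 2.18 with DESeq2. In mRNA Hipk1 turned to -0.00560 with DESeq2 size factors, -0.00689 with totals without Rn45s and insulin and -0.00516 with DESeq2, and Nfat5 to 0.00553 with limma-voom. In the difference Hipk3 turned to -0.0799 with DESeq2 size factors and -0.0831 with DESeq2, and Hipk2 to 0.17 with a mean of at least 50 counts. With libraries left out, RISC values ran from -0.22 to 0.0941 for Tnpo1, -0.51 to 0.00275 for Hipk1 and -0.20 to 0.0293 for Hipk3. In mRNA they ran from -0.20 to 0.0134 for Nfat5 and -0.0330 to 0.11 for Hipk1. In the difference they ran from -0.34 to 0.12 for Tnpo1, -0.31 to 0.14 for Nfat5, -0.46 to 0.16 for Hipk1 and -0.23 to 0.34 for Hipk2. The causes were not tested.

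Genes called, miR-17-5p against control, numbered 35 in RISC, but 1305 with DESeq2, 20 with limma-voom and 0 to 1225 with libraries left out (0 without miR-17-5p 2, 5 or 6, 1225 without control 2). In mRNA they numbered 429, but 887 with DESeq2, 1001 with limma-voom and 85 to 816 with libraries left out (85 without control 3, 816 without miR-17-5p 1). In the difference they numbered 1533, but 0 with limma-voom (2889 had an unadjusted p under 0.05 in edgeR and 2217 passed in DESeq2) and 1155 to 2452 with libraries left out (2452 without control 2). Between library types in control cells 2870 were called, but 1254 with a mean of at least 50 counts and 0 to 3114 with libraries left out (0 without control 1). In miR-17-5p cells 3770 to 4780 were called with libraries left out.

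Deviations of same-numbered RISC and mRNA libraries correlated at -0.01 to 0.05, and those of miR-17-5p and control mRNA at -0.18 and -0.06. With so few libraries a group and a wide spread in RISC, these values cannot show whether same-numbered libraries shared cells. The main fits took them as unpaired. With the replicate block the calls were 0 for miR-17-5p in mRNA, 30 in the difference, 338 between library types in control cells and 3665 in miR-17-5p cells. The block spends much of these few libraries on the numbers and leaves little to measure spread, so fewer calls there do not show fewer changes. In mRNA only numbers 1 and 2 occur in both transfections, and the miR-17-5p values under the block rest on these. Under the block Hipk1 and Secisbp2l stood at -0.16 and -0.0539 in mRNA, Hipk3 at -0.0129 in the difference, and Kpnb1 and Rangap1 were no longer called there (adjusted p = 0.173 and 0.112). No paired analysis was possible for miR-17-5p against control in RISC because the groups share 1 number.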
